A study of Mus musculus with 12 samples.

Results

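The genes of the major histocompatibility complex (MHC), which mice call H2, were followed together with the genes that serve the class II molecules in the challenged aorta. A probe belonged to the set when the array's design named its gene H2 followed by a hyphen, or Cd74, Ciita, B2m, Tapbp or Tap2. The rule gave 46 genes, represented by 60 probes, out of 34797 gene names in the probe annotation. No expression value entered the rule. Of the 46 genes, 33 could be tested because a probe was well above background on each of the 3 arrays in some group, and 30 of the 33 were well above background on all 12 arrays.

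The data are 12 one-colour arrays of total RNA from the aorta of adult male mice, 3 arrays for each of 4 groups. Every mouse carried the floxed Socs3 allele (Socs3 fl/fl). The smSocs3-KO mice also carried SM22-Cre, a recombinase driven by the promoter of the smooth muscle gene SM22, and the WT mice were littermates without Cre. Arrays were taken before challenge or at day 3 of BAPN + AngII, with BAPN (β-aminopropionitrile, which blocks lysyl oxidase and with it the crosslinking of matrix fibres) at 150 mg/kg/day and angiotensin II at 1000 ng/kg/min. The label for the strain of all 12 samples joins 129S5/SvEvBrd, C57BL6 and SJL, and the floxed line had been backcrossed to C57BL/6J for only a few generations, and the H2 alleles of each mouse are not given in the sources used here. Nothing in the labels says whether the 3 samples of a group were separate mice or pools, and p-values then measure only the spread between these samples.

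Some facts of the whole series bear on every value. Between 55.4% and 61.2% of the spots on an array were well above background, and smooth muscle, endothelial and fibroblast markers were well above background on all arrays. Socs3, a feedback inhibitor of cytokine signalling and the deleted gene, was not lower in its mean on the arrays labelled smSocs3-KO. Before challenge its log2 level was 0.30, 0.32 and 0.75 on the WT arrays and 0.24, 1.14 and 1.46 on the arrays labelled smSocs3-KO. Whether its probe lies in the deleted stretch is not given in the sources used here, and the wording arrays labelled smSocs3-KO is kept throughout. Slide 1 held all 6 WT arrays and smSocs3-KO replicate 1 before challenge, and slide 2 held the other 5 arrays, so genotype and slide largely cannot be told apart. Only smSocs3-KO before challenge had arrays on both slides, so a slide term in the model rests on its replicate 1 at both times. On slide 1 the Socs3 level of that array differed from the WT mean before challenge by -0.21, and the levels of 1.14 and 1.46 were on slide 2. WT day 3 replicate 4 differed from replicates 1 and 3 of its group in many genes, and class II differences at day 3 are given with and without it.

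MHC class I molecules sit on nearly all nucleated cells and show peptides from the cell's own proteins to CD8 T cells. Each consists of a heavy chain and β2-microglobulin, the product of B2m. Class II molecules show peptides from engulfed proteins to CD4 T cells and are made mainly by dendritic cells, B cells and activated macrophages, under the control of the transactivator Ciita. The invariant chain Cd74 fills their groove until H2-DM exchanges it for peptide, and H2-O restrains H2-DM. The arrays measure aortic tissue, in which fewer cells of a type and less RNA per cell cannot be told apart.

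The set held 10 class II genes, of which 8 could be tested, and both genes of the class II machinery, Cd74 and Ciita. On the class I side it held the classical genes H2-K1 and H2-D1, 27 non-classical genes of the Q, T and M regions and their neighbours, of which 16 could be tested, and 3 machinery genes. Those are B2m, the peptide transporter subunit Tap2 and tapasin (Tapbp), which bridges the transporter to class I. H2-Ke2 and H2-Ke6 lie in the same region and carry an H2 name, but they encode a prefoldin subunit and a steroid dehydrogenase. RefSeq lists 45 of the 46 names, of which 5 are transcribed pseudogenes (H2-Bl, H2-Ea-ps, H2-K2, H2-Q5 and H2-T10), and H2-T9 had no entry.

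The probes are short oligonucleotides, and MHC genes are alike in sequence and vary between strains, so probes that share bases are shown first. The array files place 55 of the 60 probes on mm9, 52 of them on chromosome 17. Among the 1770 pairs of probes in the set, 10 shared an unbroken run of at least 15 bases, and 7 of these joined different genes. The longest was a run of 29 bases between H2-K1 and H2-T23, followed by 28 bases between H2-K2 and H2-Q7, and both pairs are printed 5′ to 3′ with the shared run in capitals.
H2-K1, mm9 chr17:34133984-34134043, minus strand: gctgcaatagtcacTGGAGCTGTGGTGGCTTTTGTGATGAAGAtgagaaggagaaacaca
H2-T23, mm9 chr17:36167338-36167574, minus strand: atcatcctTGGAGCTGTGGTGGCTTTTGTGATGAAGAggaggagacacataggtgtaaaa
H2-K2, mm9 chr17:34111941-34112000, minus strand: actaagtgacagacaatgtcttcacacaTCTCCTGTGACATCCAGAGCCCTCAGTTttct
H2-Q7, mm9 chr17:35580315-35580374, plus strand: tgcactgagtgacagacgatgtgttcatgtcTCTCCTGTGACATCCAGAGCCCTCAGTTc
The printed H2-K1 and H2-K2 probes are the dimmer ones of their genes, and the levels given later come from the brighter ones. The brighter H2-K2 probe shares 19 bases with the H2-Q7 probe. The span given for H2-T23 is longer than its probe. RNA of either gene could pair with the shared stretch of the other gene's probe, and how much of each signal comes from the partner was not tested.

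H2-Ab1, the β chain of the class II molecule H2-A, was the only class II gene with several kept probes. The design holds a pair of them that overlap by 51 bases, the later one starting 9 bases downstream, and they differ at 1 base in the overlap, T51C when counted from the 5′ end of the first probe. The base that differs is in capitals.
H2-Ab1, first probe, mm9 chr17:34406296-34406355, plus strand: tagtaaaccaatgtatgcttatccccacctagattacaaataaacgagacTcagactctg
H2-Ab1, second probe, mm9 chr17:34406305-34406363, plus strand: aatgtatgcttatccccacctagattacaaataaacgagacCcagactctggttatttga
The brighter probe lay above the dimmer one by 0.16 to 0.32 on the log2 scale on all 12 arrays. This gap ran from 0.24 to 0.32 on the 7 arrays of slide 1 and from 0.16 to 0.22 on the 5 arrays of slide 2, without overlap. The same comparison for the pair of H2-K2 probes ran from 0.56 to 0.73. For H2-K1 it ran from 1.37 to 1.67 on the 7 arrays of slide 1, and on slide 2 it was 1.34 and 1.30 before challenge and 1.50, 1.18 and 1.25 at day 3, lower on 4 of these 5 arrays than on any array of slide 1. For H2-Q2 the range was 2.60 to 3.31. On slide 2 the H2-Q2 gap was 2.73 and 2.78 before challenge and 3.13, 2.71 and 2.60 at day 3, beside 2.99 to 3.31 on slide 1. For H2-M2 the range was 3.72 to 6.47, for H2-T24 it was 1.17 to 4.22 and for H2-Q10 it was 2.05 to 6.61. The dimmer probe of H2-T24 was well above background on 4 arrays and that of H2-Q10 on 5. Whether alleles that differ under the probes shape any of these gaps was not tested.

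Levels are log2 signals relative to the 75th percentile of the array, so 0 is a probe as bright as that percentile, and levels of different probes are not compared. Arrays are given in the order of their labels, which is replicates 1, 2 and 3 for WT before challenge, 1, 3 and 4 for WT at day 3, 1, 3 and 4 for smSocs3-KO before challenge and 2, 3 and 5 for smSocs3-KO at day 3. Differences come from 1 linear model over the 4 groups fitted with limma to all 22761 tested genes, and a gene was called when its p, adjusted by Benjamini-Hochberg over all of them, was under 0.05. The study's own threshold, an unadjusted p under 0.01 with a fold change above 4 or below 0.25, was counted as well.

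No member was called in any of the 5 designed comparisons of the reported fit. At the adjusted threshold these call 4.68% of all genes for the WT challenge response, 2.45% for the smSocs3-KO challenge response, 0.0264% for the genotype difference before challenge, 1.11% for the genotype difference at day 3 and 0% for the genotype by challenge interaction. The study's threshold also took 0 of the 33 members, beside 1.28%, 1.63%, 0.242%, 1.11% and 0.308% of all genes in the same order. At an unadjusted p under 0.05, 4 of the 33 members passed for the WT response (26.6% of all genes), 4 for the smSocs3-KO response (23.8%), 1 for genotype before challenge (4.4%), 7 for genotype at day 3 (16.2%) and 2 for the interaction (5.33%). These shares are near or below the background, slightly above it for genotype at day 3, and none is read as a result about the members. With slide as a block in the model, H2-T9, H2-T10 and H2-M11 were called in the WT response. All WT arrays lay on slide 1, so the term left these differences unchanged, at 0.71, 0.73 and -1.05. It changed only the spread estimated over the groups, and the calls are not WT responses corrected for slide. The members' values on the arrays follow as a description.

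H2-Aa encodes the α chain that pairs with H2-Ab1 in the molecule H2-A. It lay at 0.74, 0.74 and 0.39 in WT before challenge and at 1.31, 0.76 and -0.48 in WT at day 3. On the arrays labelled smSocs3-KO it lay at 0.90, 1.83 and 2.89 before challenge and at 1.99, 2.59 and 0.86 at day 3. All 3 smSocs3-KO arrays before challenge were above all 3 WT arrays, while at day 3 the genotypes overlapped because WT replicate 1 exceeded smSocs3-KO replicate 5. The difference between genotypes was 1.25 on the log2 scale before challenge (95% interval -0.04 to 2.54) and 1.28 at day 3 (-0.00 to 2.57, limma adjusted p = 0.31), about 2.38-fold and 2.43-fold. It was 0.74 before challenge without smSocs3-KO replicate 4, and 0.78 at day 3 without WT replicate 4. The challenge response was -0.09 in WT and -0.06 in smSocs3-KO.

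H2-Ab1 ran much like its partner chain. It lay at 4.08, 4.01 and 3.51 in WT before challenge, at 4.57, 4.18 and 2.79 in WT at day 3, at 4.16, 4.65 and 5.61 in smSocs3-KO before challenge and at 5.64, 5.64 and 4.03 in smSocs3-KO at day 3. Again WT day 3 replicate 4 was the lowest of all 12 arrays, and the genotypes overlapped at day 3 but not before. The genotype difference was 0.94 before challenge (-0.29 to 2.17) and 1.26 at day 3 (0.03 to 2.48, limma adjusted p = 0.30). Without smSocs3-KO replicate 4 before challenge and WT replicate 4 at day 3 these were 0.54 and 0.73.

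H2-Eb1 encodes the β chain of H2-E, whose α chain gene H2-Ea-ps is a pseudogene in the reference and was well above background on no array. H2-Eb1 lay at 4.35, 4.34 and 3.64 in WT before challenge, at 4.54, 4.21 and 2.72 in WT at day 3, at 4.49, 5.02 and 5.91 in smSocs3-KO before challenge and at 5.32, 5.60 and 4.04 in smSocs3-KO at day 3. Its genotype difference was 1.03 before challenge (-0.18 to 2.24) and 1.17 at day 3 (-0.04 to 2.37, limma adjusted p = 0.33), and 0.65 and 0.61 without those arrays. As for H2-Aa, the highest array was smSocs3-KO replicate 4 before challenge.

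Cd74, the invariant chain, lay at 3.94, 3.83 and 3.24 in WT before challenge, at 4.02, 3.69 and 2.53 in WT at day 3, at 3.85, 4.33 and 4.90 in smSocs3-KO before challenge and at 5.12, 4.72 and 3.40 in smSocs3-KO at day 3. Here the genotypes overlapped at both times. The difference between them was 0.69 before challenge (-0.39 to 1.78) and 1.0 at day 3 (-0.08 to 2.09, limma adjusted p = 0.35), and 0.42 and 0.56 without smSocs3-KO replicate 4 and WT replicate 4.

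**Figure D1:**
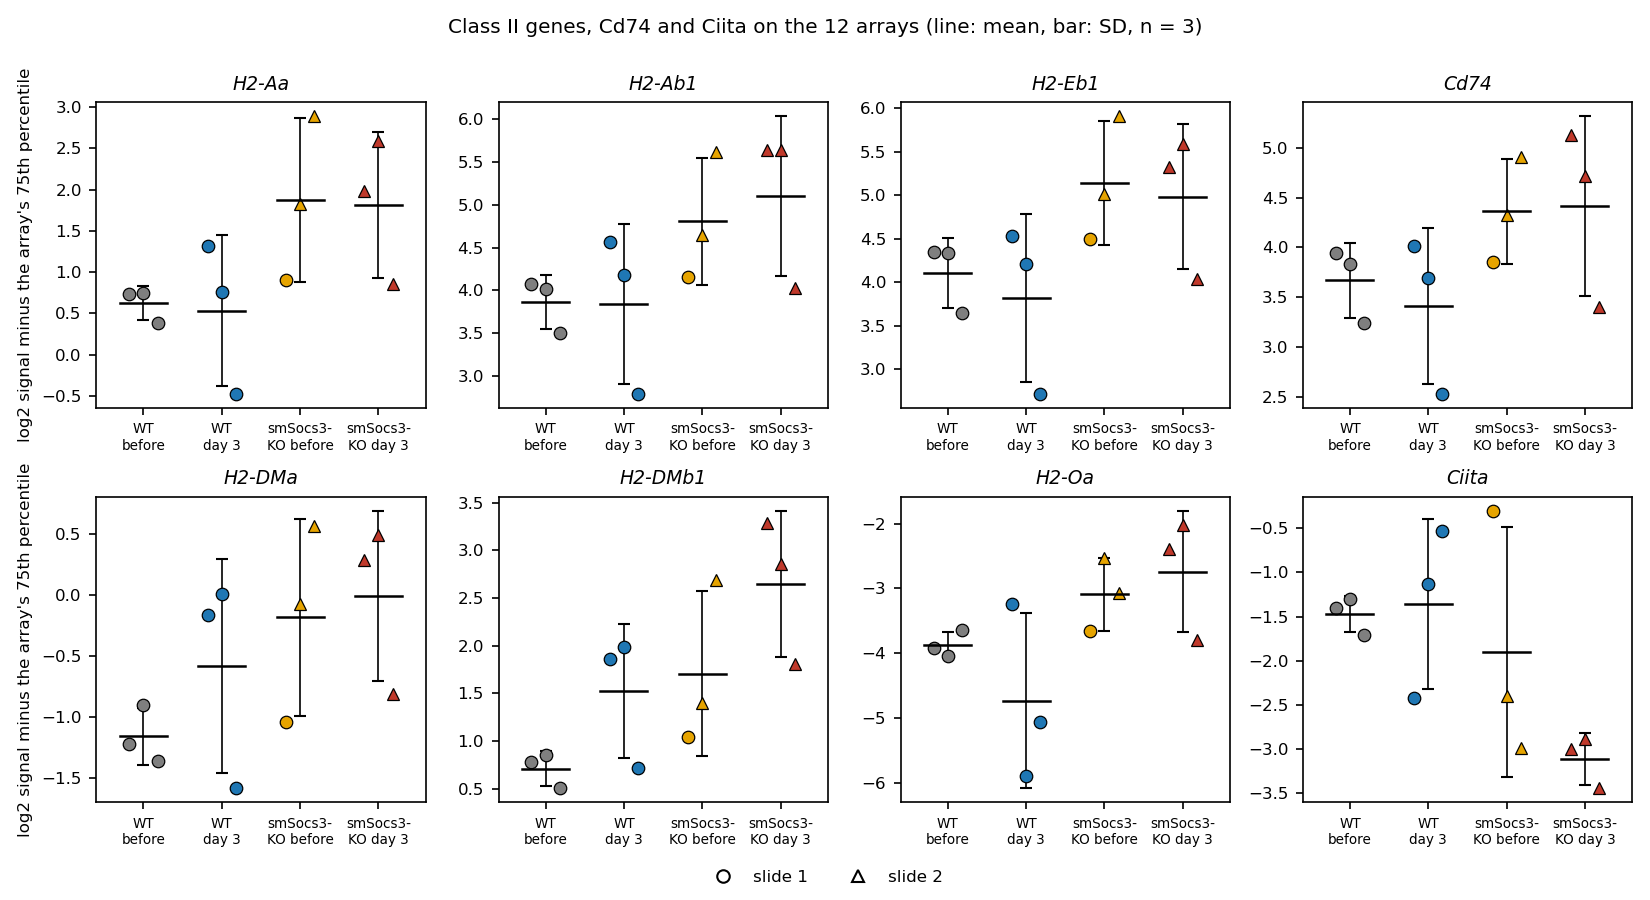
Log2 level (relative to the array's 75th percentile) of 8 class II genes on each of the 12 arrays, 1 panel a gene, with groups on the x axis. Each point is an array, circles for slide 1 and triangles for slide 2, the horizontal line is the group mean and the whisker its SD (n = 3). WT day 3 replicate 4 is the lowest array for H2-Aa (-0.48), H2-Ab1 (2.79), H2-Eb1 (2.72) and Cd74 (2.53), and Ciita lies lower on slide 2 (-3.44 to -2.40).

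H2-DMa and H2-DMb1 encode the chains of H2-DM. H2-DMa lay at -1.21, -0.90 and -1.36 in WT before challenge, at -0.16, 0.01 and -1.58 in WT at day 3, at -1.04, -0.07 and 0.57 in smSocs3-KO before challenge and at 0.29, 0.49 and -0.81 in smSocs3-KO at day 3. H2-DMb1 lay at 0.78, 0.85 and 0.50, at 1.86, 1.99 and 0.72, at 1.04, 1.39 and 2.68, and at 3.29, 2.86 and 1.80 in the same order of groups. In both genotypes the day 3 mean of H2-DMb1 was above the mean before challenge, by 0.81 in WT (-0.28 to 1.90) and 0.94 in smSocs3-KO (-0.15 to 2.03), and neither was called. Its genotype difference at day 3 was 1.13 (0.04 to 2.22, limma adjusted p = 0.29), and for H2-DMa that difference was 0.57. Without WT day 3 replicate 4 they were 0.72 and 0.07.

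The 3 remaining class II genes were dim. H2-Oa, the α chain of H2-O, lay at -3.92, -4.05 and -3.65 in WT before challenge, at -3.24, -5.89 and -5.07 in WT at day 3, at -3.66, -2.54 and -3.07 in smSocs3-KO before challenge and at -2.39, -2.03 and -3.80 in smSocs3-KO at day 3. It was well above background on 3, 1, 2 and 3 arrays of these groups, so its genotype difference of 1.99 at day 3 (0.61 to 3.38, limma adjusted p = 0.17) rests partly on values at the edge of detection. It was 1.83 without WT replicate 4. H2-Ob, the partner chain, lay at -4.88, -3.23 and -3.10, at -2.26, -3.94 and -5.24, at -4.01, -2.65 and -2.34, and at -3.48, -2.29 and -3.81, and could be tested only through smSocs3-KO at day 3, the only group with all 3 arrays well above background.

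H2-Eb2, a second gene of the E β family, lay at -4.23, -4.42 and -4.28 in WT before challenge, at -3.95, -3.72 and -3.41 in WT at day 3, at -3.43, -2.87 and -3.41 in smSocs3-KO before challenge and at -4.16, -3.33 and -4.31 in smSocs3-KO at day 3. All WT day 3 arrays were above all WT arrays before challenge, and smSocs3-KO before challenge was above WT before challenge. The challenge response was 0.62 in WT (0.03 to 1.20, limma adjusted p = 0.17) and -0.70 in smSocs3-KO (-1.28 to -0.11, adjusted p = 0.16). Their difference, the interaction, was -1.31 (-2.14 to -0.48, adjusted p = 0.75).

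Ciita, the transactivator, lay at -1.41, -1.30 and -1.70 in WT before challenge, at -2.42, -1.13 and -0.53 in WT at day 3, at -0.31, -2.40 and -2.99 in smSocs3-KO before challenge and at -3.00, -2.89 and -3.44 in smSocs3-KO at day 3. All day 3 smSocs3-KO arrays were below all day 3 WT arrays, a difference of -1.75 (-3.13 to -0.37, limma adjusted p = 0.21) and -1.34 without WT replicate 4. With slide as a block, a term that rests on smSocs3-KO replicate 1 before challenge, the day 3 difference of Ciita turned to 0.64 (adjusted p = 0.67). Before challenge it was -0.43, and 0.12 without smSocs3-KO replicate 4. Whether the probe measures Ciita alone was not tested. The 5 arrays of slide 2 lay between -3.44 and -2.40, and the 7 arrays of slide 1 between -2.42 and -0.31.

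Most class II genes had higher means on the arrays labelled smSocs3-KO, although none was called. Over the 10 tested genes of class II with Cd74 and Ciita, the median genotype difference was 0.96 before challenge, with 9 of 10 higher on the arrays labelled smSocs3-KO, and 1.07 at day 3, with 8 of 10 higher. The same medians over all genes were 0.00 and -0.08, with 50.6% and 40.5% of genes higher. Over the 7 of the 10 that were well above background on all 12 arrays, the medians were 0.97 and 1.13. Single arrays carried part of this: the median before challenge was 0.57 without smSocs3-KO replicate 4, and the median at day 3 was 0.59 without WT replicate 4.

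**Figure D2:**
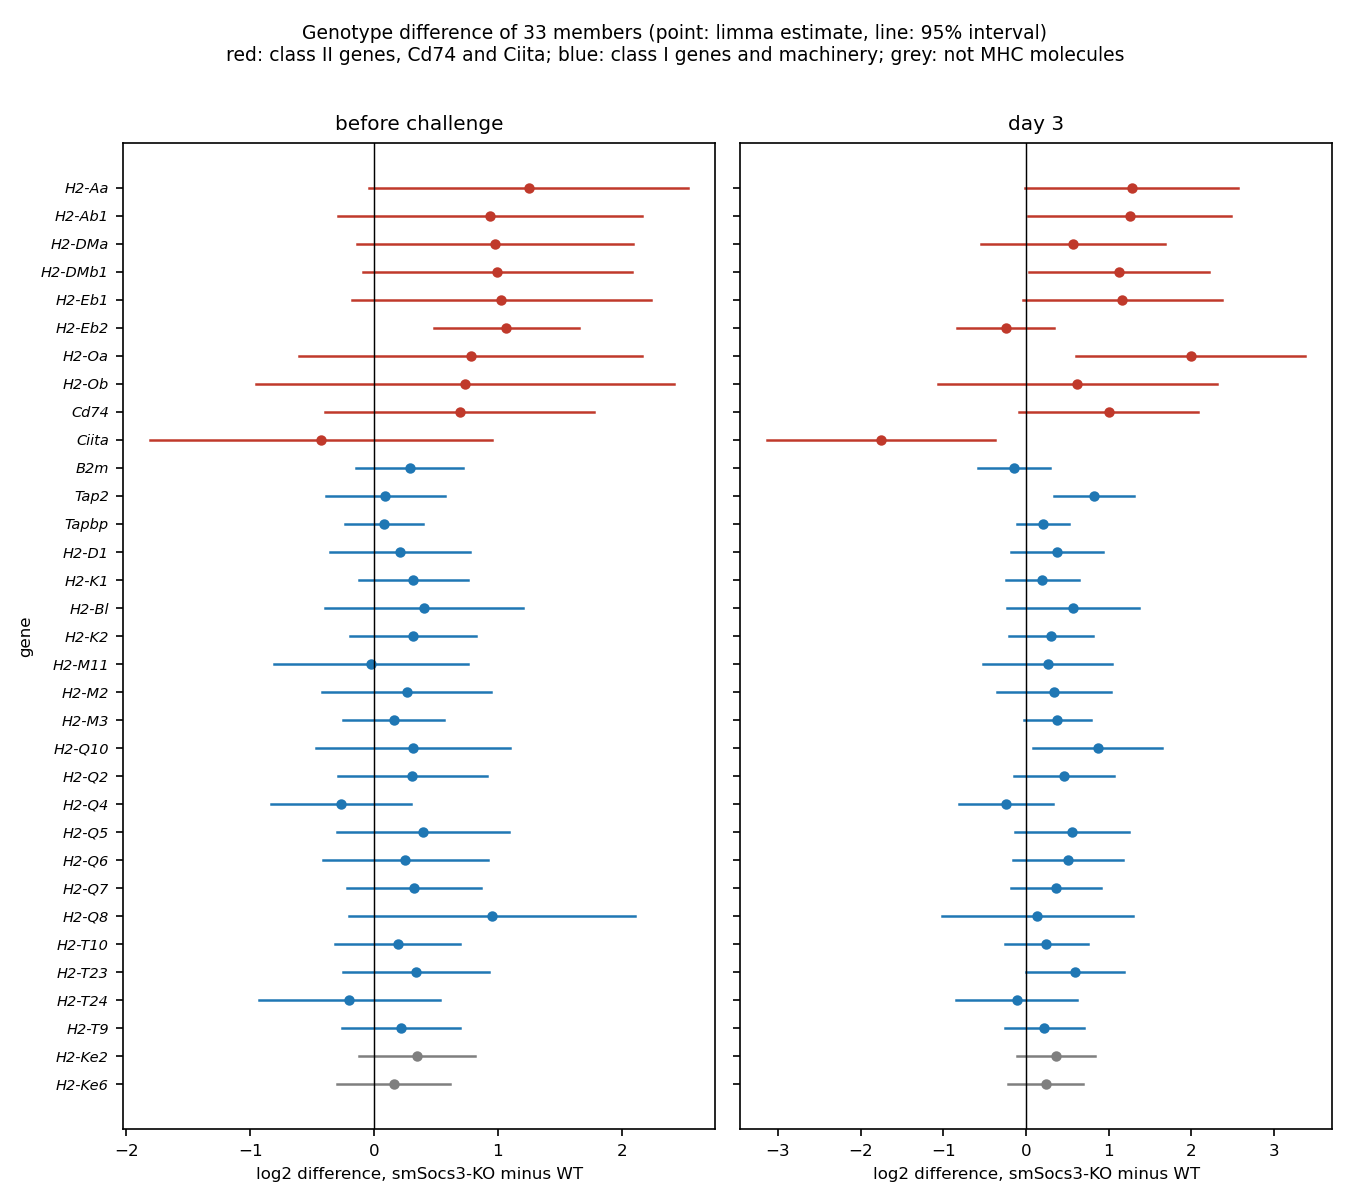
Genotype difference (smSocs3-KO minus WT, log2) of each of the 33 tested members before challenge and at day 3, with 95% intervals from the linear model, class II in red, class I and its machinery in blue and the genes that are not MHC molecules in grey. The class II points lie mostly right of 0, as H2-Aa does at 1.25 before challenge, with intervals that are wide and mostly cross 0, and Ciita lies at -1.75 at day 3.

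The slides bear on this directly. On slide 1, the only place where both genotypes met, the single smSocs3-KO array before challenge lay above the WT mean for 9 of the 10 class II genes, with a median difference of 0.28. H2-Aa was higher by 0.28 there, H2-Ab1 by 0.29, H2-Eb1 by 0.38 and Cd74 by 0.18. With slide as a block in the model the class II median was 0.28 before challenge and 0.16 at day 3. With WT day 3 replicate 4 also left out, the day 3 median was -0.31. All these values rest on that 1 array, because only smSocs3-KO before challenge had arrays on both slides. The class II difference was thus smaller with the slide term at both times and turned at day 3 in the last case. With slide as a block alone, the day 3 differences of H2-Aa and H2-DMa were -0.18 and -0.71.

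In the challenge responses the class II genes had mixed directions. The median was -0.05 in WT, with 4 of 10 higher at day 3, and -0.00 in smSocs3-KO, with 5 of 10 higher, beside -0.02 and -0.06 over all genes. Without WT day 3 replicate 4 the WT median was 0.44. Within slide 2, the 3 day 3 arrays minus the 2 arrays before challenge of smSocs3-KO gave a median of -0.33, with 2 of 10 genes higher. H2-DMb1 was one of those, higher by 0.61.

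The mean of the 6 class II genes that were well above background everywhere except Ciita (H2-Aa, H2-Ab1, H2-Eb1, H2-DMa, H2-DMb1 and Cd74) put each array in place, relative to WT before challenge. It was 0.14, 0.18 and -0.32 in WT before challenge, 0.72, 0.50 and -0.86 in WT at day 3, 0.26, 0.89 and 1.79 in smSocs3-KO before challenge and 1.64, 1.68 and 0.25 in smSocs3-KO at day 3. Only the first group was tight. Of the 10 genes, 6 had their lowest value on WT day 3 replicate 4, and the highest values fell on smSocs3-KO replicate 4 before challenge (3 genes) and replicate 2 at day 3 (3 genes).

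Markers of cells that carry class II molecules were read on the same arrays. The mean of 11 macrophage markers was -0.04, 0.03 and 0.01 in WT before challenge, 1.84, 1.31 and 0.13 in WT at day 3, -0.11, 0.45 and 0.60 in smSocs3-KO before challenge and 1.94, 1.92 and 1.87 in smSocs3-KO at day 3. Of these markers, 5 were called higher in the smSocs3-KO response (C1qa, Cd14, Cd68, Lyve1 and Mrc1) and 0 in the WT response, with 10 higher at an unadjusted p under 0.05 in each. Of all genes, 2.45% were called in the smSocs3-KO response and 4.68% in the WT response. At the unadjusted p these shares were 23.8% and 26.6%. The macrophage and class II means put the arrays in the same order within WT at day 3 and within smSocs3-KO before challenge. In the other groups the orders differed. In WT before challenge the class II mean was lowest on replicate 3 and the macrophage mean on replicate 1. In smSocs3-KO at day 3 replicate 5 was the lowest for both, at 1.87 for macrophage markers and 0.25 for class II. The macrophage means there spanned only 1.87 to 1.94, and replicates 2 and 3 changed places. A link between the orders was not tested. The leukocyte gene Ptprc had its lowest day 3 value on WT replicate 4, as did the macrophage mean and the class II mean.

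Dendritic cell markers (7 measured of 10) ranged in their mean from -0.13 to 0.19 in WT before challenge, from -0.81 to 0.35 in WT at day 3, from -0.08 to 0.35 in smSocs3-KO before challenge and from 0.58 to 0.83 in smSocs3-KO at day 3. One of them, the lectin Clec10a, was called, higher in smSocs3-KO at day 3, and Xcr1, Clec9a and Itgae had no kept probe. The B cell markers (5 of 7) had means of -0.08 to 0.09, -0.88 to -0.31, -0.26 to 0.18 and -1.18 to 0.33 in the same order, and none was called. T cell markers (6 of 7) had means of -0.35 to 0.48, -1.46 to -0.59, -0.46 to 0.10 and -1.04 to 0.11, and Cd3d and Cd3g, 2 chains of the T cell receptor complex, fell in the WT response by 2.52 and 1.97 (limma adjusted p = 0.033 and 0.035). Both were well above background on only 1 of the 3 WT arrays at day 3, while Lck differed by -1.81 and Cd2, Cd3e and Cd4 by 0.14, 0.04 and 0.03 without being called. Mesothelial markers (4 of 4) had means from -1.65 to 0.90 in WT before challenge, from -2.17 to 0.08 in WT at day 3, and from 1.20 to 2.65 on all 6 smSocs3-KO arrays. Of the other lists, the neutrophil gene Ly6g was called higher in the smSocs3-KO response and the fibroblast gene Dpt higher in smSocs3-KO at day 3, and no endothelial, smooth muscle or adipocyte marker was called in the 5 comparisons. Within WT at day 3 the dendritic, B and T cell means were also lowest on replicate 4 (-0.81, -0.88 and -1.46), while the neutrophil mean was highest there (1.26). In smSocs3-KO before challenge the dendritic cell and neutrophil means had the same order of arrays as the class II mean, and the B and T cell means did not. The part of each cell type in the class II values was not tested.

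**Figure D3:**
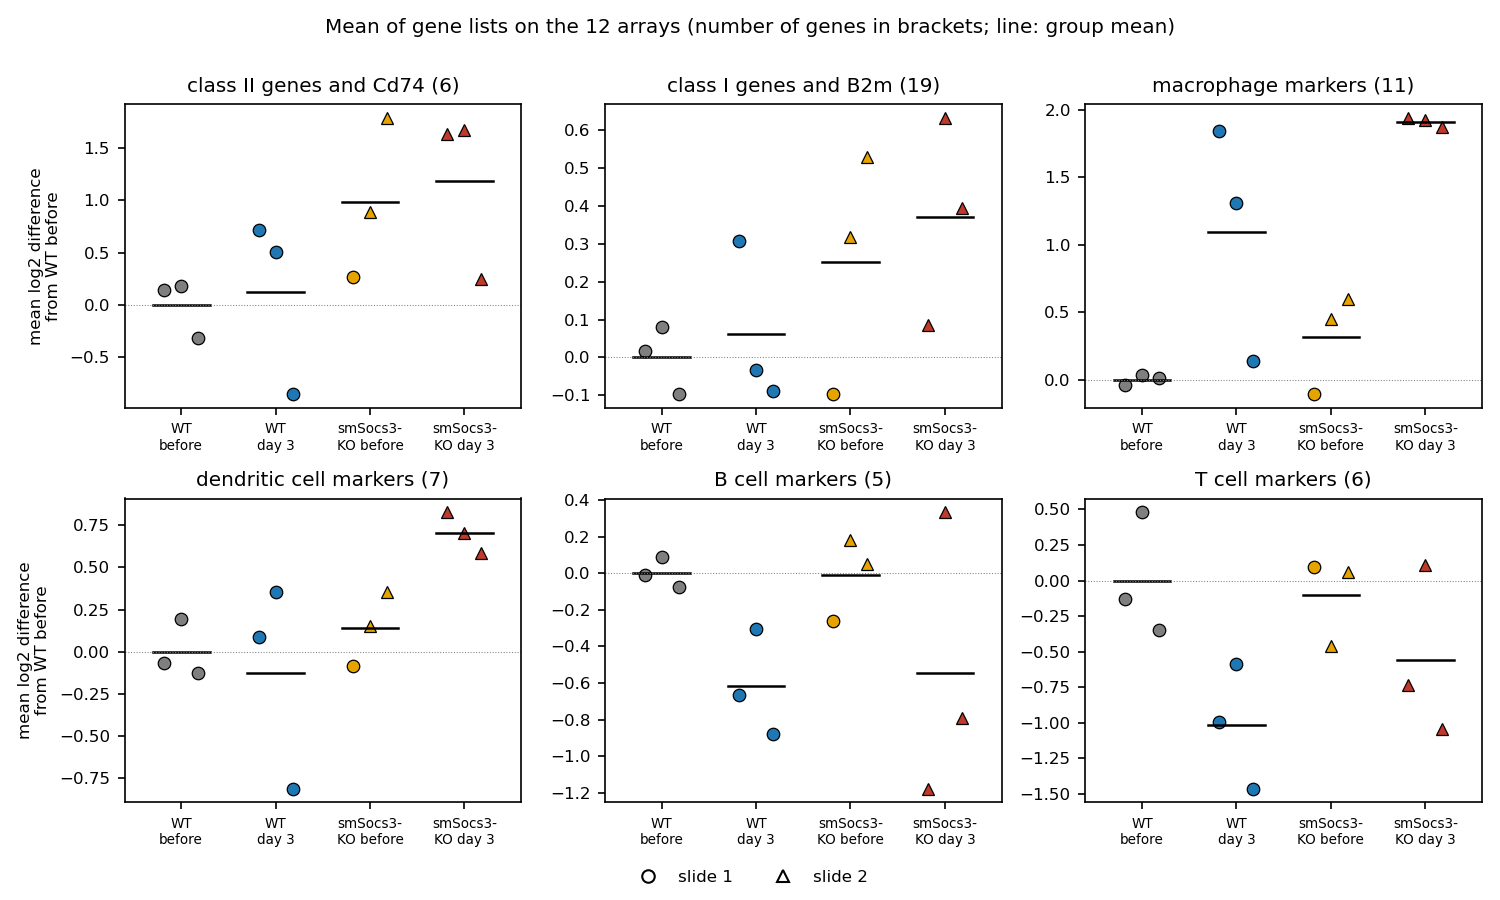
Mean log2 level of 6 lists on each array, relative to the mean of WT before challenge, with groups on the x axis, circles for slide 1 and triangles for slide 2: class II with Cd74 (6 genes), class I with B2m (19), and macrophage (11), dendritic cell (7), B cell (5) and T cell (6) markers. The macrophage mean is 1.87 to 1.94 on the smSocs3-KO day 3 arrays while the class II mean there runs from 0.25 to 1.68, and class I spans only -0.10 to 0.63 over all 12 arrays.

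Class I differed between arrays far less than class II. H2-K1 lay at 5.66, 5.69 and 5.48 in WT before challenge, at 6.09, 5.55 and 5.58 in WT at day 3, at 5.64, 5.95 and 6.18 in smSocs3-KO before challenge and at 5.75, 6.12 and 5.94 in smSocs3-KO at day 3. H2-D1 lay at 4.93, 5.07 and 4.89, at 5.06, 4.59 and 4.97, at 4.66, 5.33 and 5.53, and at 4.83, 5.44 and 5.48. Groups overlapped for both genes in every comparison. The genotype difference was 0.32 before challenge and 0.20 at day 3 for H2-K1, and 0.21 and 0.38 (-0.19 to 0.94) for H2-D1.

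B2m, the light chain shared by all class I molecules, lay at 5.86, 5.83 and 6.03 in WT before challenge, at 6.44, 6.08 and 6.40 in WT at day 3, at 5.86, 6.35 and 6.37 in smSocs3-KO before challenge and at 6.04, 6.46 and 6.00 in smSocs3-KO at day 3. All WT day 3 arrays were above all WT arrays before challenge, by 0.40 in the mean, and in smSocs3-KO the response was -0.03. Tapbp, tapasin, lay at 3.54, 3.67 and 3.42, at 3.25, 3.16 and 3.45, at 3.65, 3.59 and 3.64, and at 3.53, 3.58 and 3.38, with responses of -0.26 in WT and -0.13 in smSocs3-KO. None of these responses was called.

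Tap2, which feeds peptides to class I, was the member with the lowest p at day 3. It lay at 2.68, 2.79 and 2.75 in WT before challenge, at 2.36, 2.28 and 2.43 in WT at day 3, at 2.45, 2.74 and 3.31 in smSocs3-KO before challenge and at 2.87, 3.35 and 3.32 in smSocs3-KO at day 3. Every WT array was lower at day 3 than every WT array before, and all 3 smSocs3-KO day 3 arrays were above all WT day 3 arrays. The genotype difference at day 3 was 0.82 (0.34 to 1.30), or 1.77-fold, with an unadjusted p of 0.0033 and a limma adjusted p of 0.11. With slide as a block, a term that rests on smSocs3-KO replicate 1 before challenge, the day 3 difference was 0.24. On slide 1 the single smSocs3-KO array before challenge differed from the WT mean by -0.29. The responses were -0.38 in WT and 0.35 in smSocs3-KO, and the interaction of 0.73 had an adjusted p of 0.93.

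Over the 19 tested class I genes with B2m, the median genotype difference was 0.29 before challenge and 0.34 at day 3, with 16 of 19 higher on the arrays labelled smSocs3-KO each time, beside 0.00 and -0.08 over all genes. The SD between arrays of a group was 0.240 for the class I mean and 0.517 for the class II mean. The order of arrays differed too. The class I mean was 0.53 on smSocs3-KO replicate 4 before challenge and 0.63 and 0.40 on replicates 3 and 5 at day 3, but 0.09 on replicate 2 at day 3, where the class II mean was among the highest. On slide 1 the single smSocs3-KO array lay below the WT mean for class I, with a median of -0.24 and 5 of 19 genes higher, and with slide as a block the median was -0.24 for genotype before challenge and -0.39 for genotype at day 3. The class I difference between genotypes therefore had opposite signs with and without the slide term. That term rests on the single smSocs3-KO array of slide 1.

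A few more class I genes were chosen after their values were seen. H2-T23, which encodes the non-classical molecule Qa-1, lay between 4.31 and 4.48 in WT before challenge and between 4.27 and 4.59 in WT at day 3. On the arrays labelled smSocs3-KO it lay at 4.13, 4.86 and 5.18 before challenge and at 4.58, 5.27 and 5.15 at day 3. Its difference at day 3 was 0.59 (limma adjusted p = 0.31), and that of H2-Q10, a gene known for a secreted class I molecule of the liver, was 0.87 (adjusted p = 0.27). The single smSocs3-KO array of slide 1, before challenge, differed from the WT mean by -0.25 for H2-T23 and -0.56 for H2-Q10. H2-Q10 also shows how far probes can part: its other kept probe was well above background on 1, 1, 0 and 3 arrays of the 4 groups. It was kept only through smSocs3-KO at day 3, the group where it was high, so its response of 2.81 in smSocs3-KO is a description, beside 0.44 on the brighter probe.

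H2-Q4, also chosen after its values were seen, ran against most class I genes. It was at 8.02, 7.78 and 7.77 in WT before challenge, at 7.95, 8.30 and 7.42 in WT at day 3, at 8.08, 7.41 and 7.28 in smSocs3-KO before challenge and at 7.73, 7.72 and 7.49 in smSocs3-KO at day 3. The genotype difference was -0.27 before challenge and -0.24 at day 3.

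**Figure D4:**
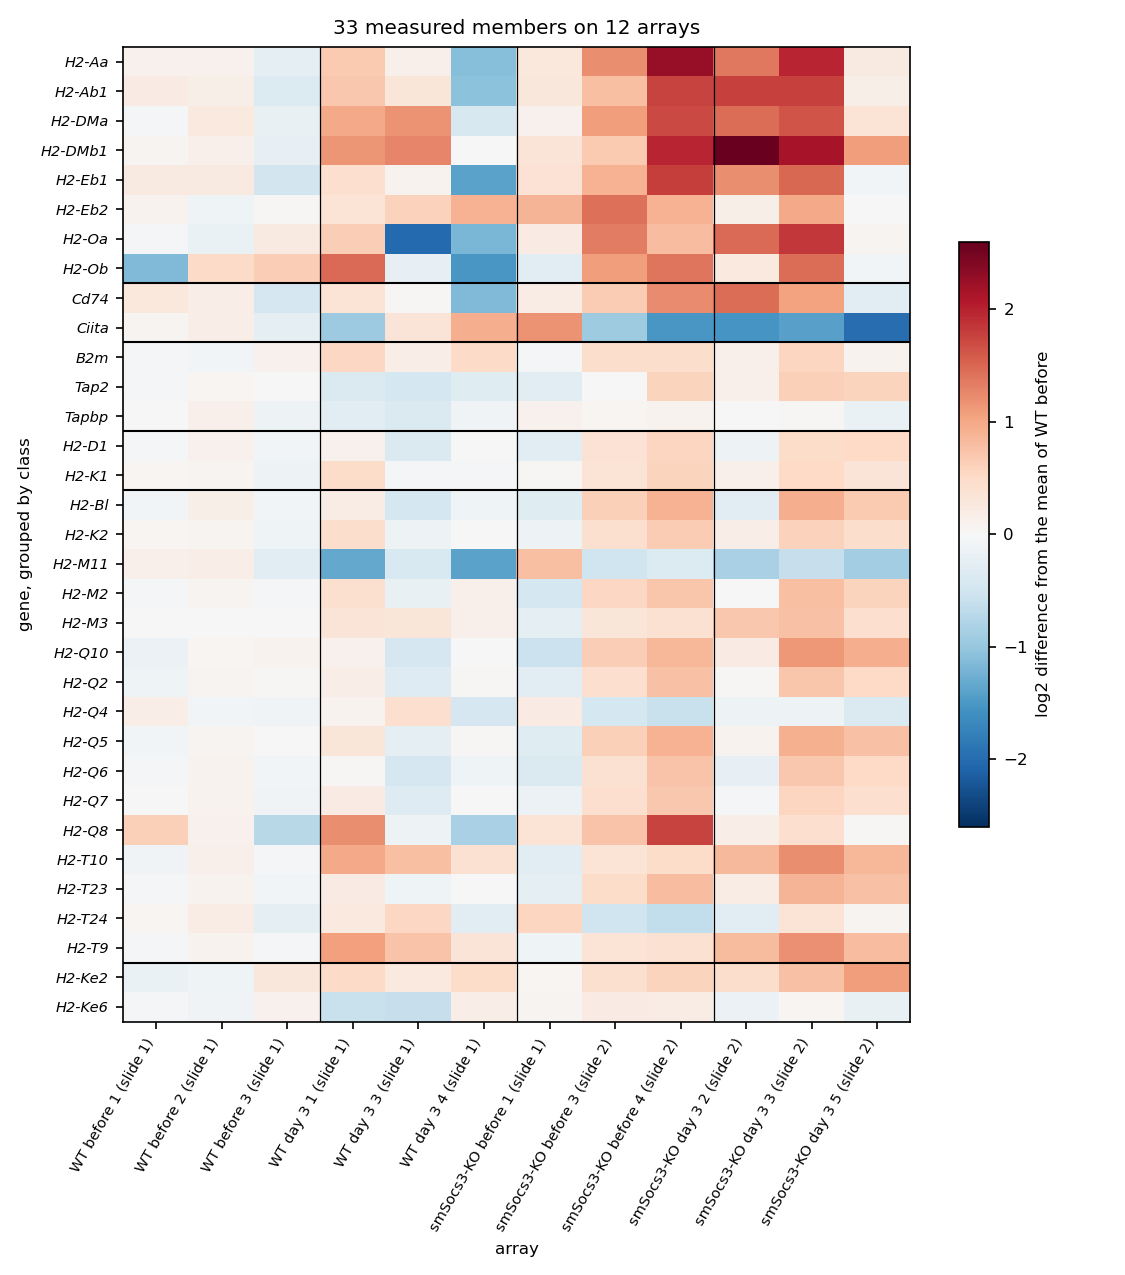
Log2 level of the 33 tested members (rows, ordered by class) on the 12 arrays (columns, ordered by group), relative to each gene's mean in WT before challenge. The class II rows are warm on most smSocs3-KO columns, the class I rows are paler, and the Ciita row is cold on all slide 2 columns.

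Among the tested members, a pair of non-classical genes of the T region had the lowest adjusted p in both challenge responses. Neither gene was called in these comparisons. H2-T9 lay at 0.05, 0.19 and 0.07 in WT before challenge and at 1.17, 0.85 and 0.43 at day 3. In smSocs3-KO it lay at -0.00, 0.47 and 0.51 before challenge and at 0.93, 1.28 and 0.90 at day 3. Every day 3 array was above every array before challenge of its own genotype. The response was 0.71 in WT (0.24 to 1.19), or 1.64-fold, with a limma adjusted p of 0.075, and 0.72 in smSocs3-KO, with an adjusted p of 0.093. With slide as a block the WT response of H2-T9 was the same 0.71, with an adjusted p of 0.047.

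H2-T10, which RefSeq lists as a transcribed pseudogene, ran in parallel. It lay at -0.34, -0.11 and -0.29 in WT before challenge, at 0.73, 0.54 and 0.16 in WT at day 3, at -0.52, 0.11 and 0.24 in smSocs3-KO before challenge and at 0.60, 0.96 and 0.62 in smSocs3-KO at day 3, again without overlap between times. Its response was 0.73 in WT (0.22 to 1.23) and 0.78 in smSocs3-KO (0.28 to 1.28), with limma adjusted p of 0.081 and 0.086, and of 0.036 in WT with slide as a block. The probes lie apart on the chromosome but share a run of 12 bases, in capitals, and how much each signal draws on the other gene was not tested.
H2-T9, mm9 chr17:36177171-36177230, minus strand: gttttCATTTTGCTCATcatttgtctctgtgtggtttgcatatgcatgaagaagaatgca
H2-T10, mm9 chr17:36255918-36255977, minus strand: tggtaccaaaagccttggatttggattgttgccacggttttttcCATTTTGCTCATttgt
The responses of the genotypes were close in their means, with an interaction of 0.00 for H2-T9 (-0.67 to 0.68) and 0.06 for H2-T10 (-0.65 to 0.77). The mean of both responses was also tested, a comparison chosen after the values were seen. It called 22.7% of all genes and 3 of the 33 members. The share of members is smaller and is not read as a result about them. H2-T9 rose by 0.72 (0.38 to 1.05) and H2-T10 by 0.75 (0.40 to 1.11), each with a limma adjusted p of 0.012.

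H2-M11 was the third member called in that mean response, and it fell. It lay at 0.84, 0.87 and 0.40 in WT before challenge, at -0.64, 0.30 and -0.69 in WT at day 3, at 1.49, 0.19 and 0.35 in smSocs3-KO before challenge and at -0.13, 0.10 and -0.20 in smSocs3-KO at day 3. No day 3 array reached the lowest array before challenge of its genotype. The response was -1.05 in WT (-1.83 to -0.26, limma adjusted p = 0.099, and 0.038 with slide as a block) and -0.76 in smSocs3-KO (adjusted p = 0.22), and the mean of both was -0.90 (-1.45 to -0.35, adjusted p = 0.029). That call was lost when any of 5 arrays was left out (WT replicates 1 and 2 before challenge, WT replicate 1 at day 3, and smSocs3-KO replicates 2 and 5 at day 3), with limma adjusted p of H2-M11 between 0.058 and 0.075. Within slide 2 the day 3 arrays differed from the arrays before challenge by 0.55 for H2-T9, 0.55 for H2-T10 and -0.35 for H2-M11.

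**Figure D5:**
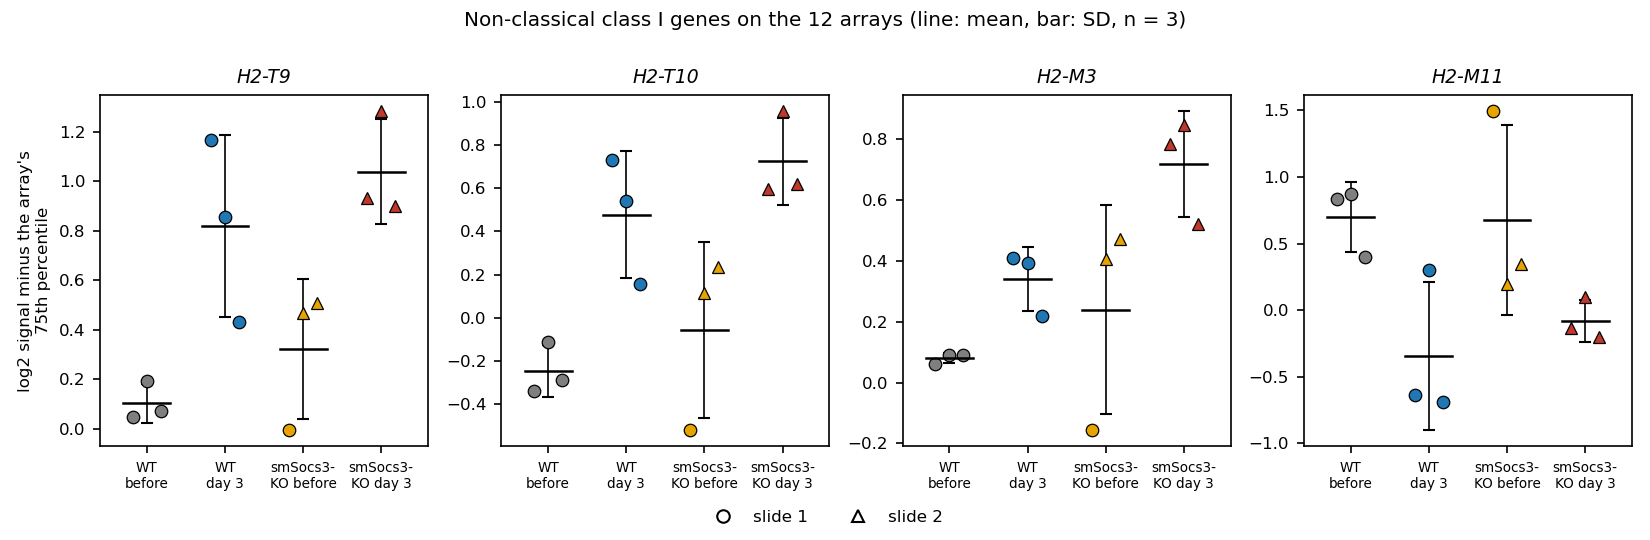
Log2 level of H2-T9, H2-T10, H2-M3 and H2-M11 on each of the 12 arrays by group, circles for slide 1, triangles for slide 2, horizontal lines for group means and whiskers for the SD (n = 3). H2-T9 and H2-T10 lie higher at day 3 than before in both genotypes, by 0.72 and 0.75 in the mean of both responses, and H2-M11 lies lower, at -0.90 in that mean.

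At an unadjusted p under 0.05 the mean response took 6 of the 33 members, beside 39.1% of all genes. The others were H2-DMb1, H2-M3 and H2-Ke2, all higher at day 3. H2-M3, which presents formylated peptides of mitochondria and bacteria, had a response of 0.26 in WT and 0.48 in smSocs3-KO (0.07 to 0.88, limma adjusted p = 0.16). H2-Q8, the remaining non-classical gene with a wide range of group means, lay at 0.68, 0.17 and -0.66 in WT before challenge, at 1.27, -0.06 and -0.79 in WT at day 3, at 0.42, 0.81 and 1.81 in smSocs3-KO before challenge and at 0.24, 0.51 and 0.10 in smSocs3-KO at day 3. Its arrays spread from -0.79 to 1.27 within WT at day 3 alone, and it passed no threshold.

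The mean of both genotype differences was tested in the same way, also after the values were seen. It called 0 of the 33 members, beside 0.778% of all genes, and at an unadjusted p under 0.05 it took 11, beside 15.4%. Higher on the arrays labelled smSocs3-KO in that count were Cd74, H2-Aa, H2-Ab1, H2-DMb1, H2-Eb1, H2-Ke2, H2-Oa, H2-Q10, H2-T23 and Tap2, and lower was Ciita.

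The members that are not MHC molecules, H2-Ke2 and H2-Ke6, were not called in any comparison of the reported fit. Over the 26 alternatives H2-Ke6 was called lower at day 3 in 2 for the WT response and in 5 for the mean challenge response. H2-Ke2 lay at 1.81, 1.88 and 2.30 in WT before challenge, at 2.49, 2.26 and 2.47 in WT at day 3, at 2.04, 2.41 and 2.57 in smSocs3-KO before challenge and at 2.46, 2.76 and 3.09 in smSocs3-KO at day 3. H2-Ke6 stayed between 3.15 and 3.96 on all 12 arrays.

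Of the 46 genes, 13 had no kept probe: H2-DMb2, H2-Ea-ps, H2-M1, H2-M10.1, H2-M10.2, H2-M10.3, H2-M10.4, H2-M10.6, H2-M5, H2-M9, H2-Q1, H2-T18 and H2-T3. Of the 20 probes in the set that were not kept, 13 were well above background on no array. Of the 13 genes, H2-DMb2, H2-M10.1, H2-M9, H2-Q1 and H2-T18 were well above background on single arrays, and none on a full group.

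The promoters of class II genes are known for a shared module that ends in the Y box, whose core reads ATTGG, or CCAAT on the other strand. RefSeq promoters on GRCm38.p6, from 250 bases before the start to 50 after, were at hand for 31 members. The core, on either strand, lay in 28 of 31 (90.3%), among them 8 of 8 class II and 18 of 21 class I promoters, compared with 37.4% of all 32851 promoters of that length. It was missing from H2-M5, H2-Q10 and H2-T3. Members were counted by gene, with a match in any of its promoters, while the share over all was counted by promoter. MHC genes are alike in sequence, so the members are not independent of each other. Relative to the start, the core lay at position -48 in H2-Aa, -61 in H2-DMb1, -43 in H2-Oa, -57 in H2-Ob, -59 and -35 in H2-Eb1, -90 in H2-DMb2, -100 in H2-Eb2 and -198 in H2-DMa, and the printed windows have it in capitals.
H2-Aa, chr17:34287774-34288073, minus strand: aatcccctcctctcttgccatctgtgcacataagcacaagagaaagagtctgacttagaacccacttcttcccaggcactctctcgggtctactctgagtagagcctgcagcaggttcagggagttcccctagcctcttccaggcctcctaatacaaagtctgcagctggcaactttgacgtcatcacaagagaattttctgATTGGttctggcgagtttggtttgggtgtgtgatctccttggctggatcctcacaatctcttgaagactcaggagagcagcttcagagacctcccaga
H2-Eb1, chr17:34305617-34305916, plus strand: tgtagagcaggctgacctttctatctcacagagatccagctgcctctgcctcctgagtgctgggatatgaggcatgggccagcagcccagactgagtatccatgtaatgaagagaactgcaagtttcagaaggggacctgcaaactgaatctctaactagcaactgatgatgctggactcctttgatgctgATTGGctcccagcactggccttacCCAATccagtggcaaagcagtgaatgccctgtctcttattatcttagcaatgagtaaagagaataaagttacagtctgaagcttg
H2-DMb1, chr17:34152941-34153240, plus strand: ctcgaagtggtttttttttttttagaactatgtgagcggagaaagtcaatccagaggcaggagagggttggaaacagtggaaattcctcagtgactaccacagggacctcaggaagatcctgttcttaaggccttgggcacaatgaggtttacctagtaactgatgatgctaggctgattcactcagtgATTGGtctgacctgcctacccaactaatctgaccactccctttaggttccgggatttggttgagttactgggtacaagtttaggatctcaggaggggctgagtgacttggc
H2-K1, chr17:34000298-34000597, minus strand: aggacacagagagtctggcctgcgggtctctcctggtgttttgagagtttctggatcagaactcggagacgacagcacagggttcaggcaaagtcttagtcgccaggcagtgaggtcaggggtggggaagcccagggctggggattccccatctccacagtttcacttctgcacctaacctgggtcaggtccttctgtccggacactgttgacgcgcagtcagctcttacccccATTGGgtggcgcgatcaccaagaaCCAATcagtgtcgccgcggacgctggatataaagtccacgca
Other motifs were rarer. The core of the interferon-stimulated response element, searched on either strand with a pair of free bases between its repeats, lay in 2 of 31 (B2m and H2-T23; 3.44% of all promoters), and the gamma-activated site TTCNNNGAA, a palindrome that Stat factors bind, in 3 of 31 (H2-DMb2, H2-M11 and H2-M3; 8.30% of all). These are matches of letters and not binding sites.

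The genes around the set gave a broader view of antigen processing. Of a list of 46 genes for proteases, peptide loading, interferon signalling and regulators of MHC genes, 44 were measured, all but Ifng and Sppl2a. In the WT response 3 were called, all higher: the chaperones Calr (0.69, limma adjusted p = 0.043) and Pdia3 (0.79, adjusted p = 0.035), which help to load class I, and the co-stimulatory receptor Cd40 (0.97, adjusted p = 0.048). In the smSocs3-KO response 3 others were called, all higher: cathepsin S (Ctss, 2.27, adjusted p = 0.038), the protease that trims Cd74, the lysosomal reductase Ifi30 (1.14, adjusted p = 0.029) and the myeloid regulator Irf8 (1.49, adjusted p = 0.032). Of all genes, 4.68% were called in the WT response and 2.45% in the smSocs3-KO response. That a gene was called in only 1 genotype does not show a difference between them, and the interaction called none.

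Ctss shows how the WT arrays parted. It lay at 2.02, 2.01 and 1.87 in WT before challenge, at 4.56, 3.97 and 2.54 in WT at day 3, at 1.87, 2.88 and 3.21 in smSocs3-KO before challenge and at 4.82, 4.95 and 5.01 in smSocs3-KO at day 3. Between genotypes at day 3, Irf8 (1.37, limma adjusted p = 0.049) and prosaposin (Psap, 4.51, adjusted p = 0.047) were called higher in smSocs3-KO. That comparison called 1.11% of all genes. Psap was at 4.53 on smSocs3-KO replicate 4 before challenge and at 4.36 to 5.10 at day 3, and between -0.23 and 0.65 on the other 8 arrays. The mean of both responses called 11 of the 44, beside 22.7% of all genes. All 11 were higher: Calr, Cd40, Ctsb, Ctsl, Ctss, Ctsz, Ifi30, Irf8, Jak1, Lgmn and Pdia3.

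Genotype before challenge took 0 of the 44 genes at the adjusted threshold and 0 at an unadjusted p under 0.05. The shares of all genes were 0.0264% and 4.4%. The list's median was 0.13 in the WT response, 0.20 in the smSocs3-KO response, 0.14 for genotype before challenge and 0.24 at day 3, beside -0.02, -0.06, 0.00 and -0.08 over all genes. Of the genes not called in any of the 5 comparisons, 5 were chosen after their values were seen. At day 3 their genotype differences were 0.87 for the transporter subunit Tap1, 0.65 and 0.54 for the immunoproteasome subunits Psmb8 and Psmb9, 0.59 for Nlrc5, the class I transactivator, and 0.52 for Irf1. Of the 44 genes, 34 were higher at day 3 and the rest were not. At an unadjusted p under 0.05, 7 were higher and 2 lower, beside 16.2% of all genes. All smSocs3-KO day 3 arrays were on slide 2 and all WT arrays on slide 1, so genotype and slide cannot be told apart there.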

How the data were processed

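The authors deposited the scanner output of 12 one-colour arrays, whose processed signal is an intensity on a linear scale with background subtracted and trends removed by Feature Extraction (10.7.1.1 per the file headers, 9.5.1.1 in the submitters' processing notes), and a table of intensity values quantile normalized by the authors. From the scanner output, control and outlier spots were dropped, spots of 1 probe averaged, and log2 of the deposited intensity minus the array's 75th percentile taken. The filter kept 32283 of 55681 probes. Well above background means a signal at least 13 background SDs over the background. No spot was saturated. The brightest kept probe stood for a gene. Levels have no unit of molecules, and the number of arrays limits the precision.

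Groups came from the sample labels. Group means of 22761 genes were fitted with limma 3.58.1 in R 4.3.3 (two-sided tests), and the script was tested on simulated data. The mean of both challenge responses and the mean of both genotype differences were added after values were seen. The members and lists were chosen with earlier results of these data known. Full values are printed for all tested class II, classical class I and machinery genes, and for the 4 non-classical genes with the widest range of group means. Besides antigen processing genes, markers of macrophages, dendritic, B and T cells, neutrophils, all leukocytes, endothelium, smooth muscle, fibroblasts, mesothelium and adipocytes were followed. Alternatives covered background correction, normalization, filter, choice of probe, variance moderation, arrays in the fit, slide, replicate number and each array left out. Positions of probes are on mm9, as the array design gives them. A gene annotation of mm9 was not used here, so exons are not given. RefSeq promoters and names are of GRCm38.p6. Some items are not reported here.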

Additional observations from a re-analysis of the deposited data

Results flagged for a closer look

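A pair of genes moved in opposite ways in the genotypes. All 3 day 3 arrays of H2-Eb2 lay above the mean before challenge in WT and below it in smSocs3-KO, a difference between responses of -1.31 (limma adjusted p = 0.75). All 3 day 3 arrays of Tap2 lay below that mean in WT and above it in smSocs3-KO, a difference of 0.73 (limma adjusted p = 0.93). The test of the difference did not pass for either gene after adjustment. All smSocs3-KO day 3 arrays were on slide 2, while smSocs3-KO replicate 1 before challenge was on slide 1. Within slide 2 the smSocs3-KO response was 0.15 for Tap2 and -0.79 for H2-Eb2. Tap2 on replicate 2 at day 3 (2.87) lay below the slide 2 mean before challenge (3.03).

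Probes of 3 genes that were too dim to be tested were well above background on some day 3 array and on no array before challenge. An H2-M9 probe reached -2.15, on 2 of 3 smSocs3-KO day 3 arrays, with at most -6.01 before challenge. H2-M10.1 reached -3.59 on 1 smSocs3-KO array at day 3, with at most -5.47 before, and an H2-T18 probe reached -4.14 on 1 WT array at day 3, with at most -6.04 before. The other H2-M9 probe was well above background on 2 of the smSocs3-KO arrays at day 3 and on 1 WT array before challenge. Groups of 3 arrays were not tested for single outlying values.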

How the results depend on the processing

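Across 26 alternatives and 231 results of a member in a comparison, 34 of 5985 values passed the adjusted threshold in the reported direction where the reported one had not, and 577 values that were not called on either side changed sign. In the mean challenge response H2-T9 and H2-T10 were each called in 25 of the 26 alternatives and H2-M11 in 19. H2-M2 was the only member called with its sign turned, at -1.08 (adjusted p = 0.018) in the mean challenge response when the dimmest kept probe stood for a gene. The cause of the changes below was not tested.

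The number of members called moved from 3 in the mean challenge response to 6 with normexp background and quantile normalization, and to 5 with quantile normalization, with the authors' value table, with the dimmest kept probe, and with slide as a block without WT day 3 replicate 4. It moved from 0 to 1 in the smSocs3-KO response with the mean of a gene's probes and with the dimmest kept probe. In the WT response it moved from 0 to 3 with slide as a block (H2-M11, H2-T10 and H2-T9), a term that left the WT differences of these genes unchanged. The count was also 3 there without WT day 3 replicate 4, where the names can differ. Over the 26 alternatives of the WT response, H2-M11 and H2-Ke6 were each called in 2.

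With slide as a block the class I median was -0.16 in the smSocs3-KO response, -0.24 for genotype before challenge, -0.39 for genotype at day 3, -0.16 for the interaction and -0.28 for the mean genotype difference, and the class II median was 0.28, 0.16 and 0.22 for genotype before challenge, genotype at day 3 and their mean. Leaving out WT day 3 replicate 4 as well, a setting chosen after seeing the data, gave class I medians of -0.16, -0.24, -0.40, -0.18 and -0.32 in the same order and class II medians of 0.28, -0.31 and 0.017, with -0.67 for the interaction. In both settings the slide term rests on smSocs3-KO replicate 1 before challenge.

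Antigen processing genes called higher in the WT response (3) were 0 with quantile normalization, the authors' value table, no filter and only the arrays compared, 1 with normexp and quantile or the dimmest probe, 6 with probes well above background on all 12 arrays, trend and robust moderation or slide as a block, and 10 with slide as a block without WT day 3 replicate 4. In the smSocs3-KO response (3) they were 0 with no filter or slide as a block. For genotype at day 3 (2) they were 0 with quantile normalization, the authors' value table, no filter and both slide blocks, and 1 with only the arrays compared. In the mean challenge response (11) they were 6 with quantile normalization or the authors' value table and 7 with normexp and quantile. In the mean genotype difference (0) they were 1 with normexp, array median, dimmest probe or trend and robust moderation. Genes called lower were 3 in the WT and mean responses with the second slide block, and 1 in the mean response with the mean of a gene's probes.

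With each array left out in turn, members called ranged from 0 to 3 in the WT response, 0 to 1 in the smSocs3-KO response, 0 to 1 for genotype at day 3, 2 to 5 in the mean challenge response and 0 to 4 in the mean genotype difference. The class I median ranged from -0.16 to 0.38 in the smSocs3-KO response, 0.11 to 0.54 for genotype before challenge and -0.16 to 0.28 for the interaction, where the class II median ranged from -0.44 to 0.53. Antigen processing genes called higher ranged from 0 to 7 in the WT response, 0 to 4 in the smSocs3-KO response, 0 to 2 for genotype at day 3, 0 to 1 for the interaction, 6 to 13 in the mean challenge response and 0 to 4 in the mean genotype difference, and those called lower from 0 to 2, 0 to 3 and 0 to 1 in the WT response, mean challenge response and mean genotype difference. The 4 members were called in the mean genotype difference without smSocs3-KO replicate 1 before challenge (Ciita, H2-Q10, H2-T23 and Tap2), 3 in the WT response without that array or without WT day 3 replicate 4, and H2-Oa at day 3 without WT replicate 1 (2.74, adjusted p = 0.046).

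Nothing in the labels says that a replicate number is shared across groups, and the deviations of same-numbered arrays correlated from -0.40 to 0.46, not above 0.1 in every pair, so the arrays were taken to share only a number. With the replicate block, members called in the mean challenge response were 0 (adjusted p of 0.076 for H2-T9, 0.080 for H2-T10 and 0.125 for H2-M11), and antigen processing genes called higher were 0 in the WT response, 0 in the smSocs3-KO response, 0 for genotype at day 3 and 1 in the mean challenge response. Signal over background limits H2-Oa, H2-Ob, H2-Eb2 and the 13 untested genes. Over the alternatives, all genes called, WT challenge response, ran from 0 to 4999 (reported 1065), all genes called, smSocs3-KO challenge response, from 2 to 1900 (557), all genes called, genotype difference before challenge, from 0 to 14 (6), all genes called, genotype difference at day 3, from 0 to 651 (253), all genes called, mean challenge response, from 895 to 6618 (5178), and all genes called, mean genotype difference, from 0 to 1437 (177).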
